A study of Mus musculus with 96 samples.

Results

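Marco, Msr1 and Mrc1 encode endocytic receptors of myeloid cells, and their array signal was followed in mouse dendritic cells exposed to ligands of Toll-like receptors. The members were every probe set annotated to these 3 genes: 6 of the 18858 probe sets on the array, with 1 for Marco (1449498_at), 1 for Mrc1 (1450430_at) and 4 for Msr1. Of the 4 probe sets of Msr1, 1422062_at had the highest mean intensity over all arrays and stands for the gene below, with 1425434_a_at, 1425435_at and 1448061_at given beside it. The 3 genes were among 7741 named genes that were tested. They were described because Marco and Mrc1 went opposite ways late in the time course. Their late differences from unstimulated cells and between ligands are therefore given as a description, with no test.

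The cells were primary bone marrow dendritic cells of the mouse, and the sources used here do not give their strain, sex or age. They were exposed to 1 of 5 ligands, labelled Lps, Pic, Pam, Cpg and Grd, for 0.5 h, 1 h, 2 h, then 4 h to 8 h in steps of 2 h, then 12 h, 16 h or 24 h. The labels do not spell these names out. As far as the study is known, Lps is lipopolysaccharide, which acts on TLR4, and Pic is poly(I:C), which mimics double-stranded RNA and acts on TLR3. Pam is a lipopeptide acting on TLR2, Cpg an oligonucleotide acting on TLR9 and Grd gardiquimod, acting on TLR7. Each ligand and time had 2 arrays, except Cpg at 16 h and at 24 h with 1 array each. The unstimulated cells, labelled Control, had 1 array at each of 0, 1, 2, 4, 6, 8, 12 and 24 h, so there was no Control array at 0.5 h or 16 h. No agent or deletion common to all groups is named in the labels. Nothing in the labels tells if both arrays of a time came from separate cultures, so the spread between them may be technical. Every p-value below measures a spread between arrays. Where the Control arrays share 1 mean, that spread also holds their differences over time. For a slope over the Control arrays it is their scatter about the fitted line. All arrays lay on 1 plate. For Lps, Pic, Pam and Grd each time had a plate column of its own, while Cpg and Control shared columns 10 to 12, so for these 4 ligands an effect of place and one of time or ligand cannot be told apart.

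Marco and Msr1 belong to the class A scavenger receptors, trimeric surface proteins with a collagen-like stalk that bind bacteria, modified lipoproteins and other polyanionic particles. Mrc1 (CD206) is the macrophage mannose receptor, a C-type lectin that takes up glycoproteins carrying mannose, fucose or N-acetylglucosamine. In dendritic cells grown from bone marrow, high uptake through the mannose receptor is known as a feature of the immature state, and Mrc1 is also widely used as a marker of alternative activation by interleukin-4. Marco is known to be induced in macrophages and dendritic cells by bacterial products. Dendritic cells that meet a Toll-like receptor ligand lower their uptake of antigen and turn to its presentation.

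The 96 arrays had median intensities between 48.75 and 59.5, and between 33.1% and 34.6% of their probe sets lay at the lowest deposited value, a floor of 20. Across the 43 pairs of arrays of the same ligand and time, Pearson's r of the log2 intensities ran from 0.9852 to 0.9982, and no 2 arrays were identical. Among 11 dendritic cell markers, 8 had a Control mean over 100, and their summed intensity ran from 27463.6 to 30024.4 over the Control arrays and from 19806.9 to 28627.5 over the late arrays of all ligands. Flt3 and Zbtb46, a pair of defining dendritic cell markers, were near the floor in Control, with means of 28.8 and 40.4. Of 11 macrophage markers 8 were measured, 7 with a Control mean over 100, and their sum ran from 8157.7 to 15677.1 in Control and from 7092.2 to 15387.3 over the late arrays. Neutrophil markers summed to between 3296.4 and 6020.5 in Control and between 569.4 and 2553.6 late. The measured B, T and natural killer cell markers (Cd79b, Cd3e and Prf1) stayed at or within 5 units of the floor. In such bulk samples, fewer cells of a type and less RNA per cell cannot be told apart, and what part the other cell types had in the results was not tested.

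The sequences directly upstream of the gene starts are shown for Marco and Mrc1 because these genes went opposite ways. They are the 250 bases before the RefSeq start in GRCm38.p6, printed 5′ to 3′ on the strand of the gene, with matches to GAGGAA, the core letters bound by the myeloid transcription factor PU.1, or to its reverse complement, in capitals. Msr1 is named only.

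Marco, chr1:120505025-120505274, minus strand: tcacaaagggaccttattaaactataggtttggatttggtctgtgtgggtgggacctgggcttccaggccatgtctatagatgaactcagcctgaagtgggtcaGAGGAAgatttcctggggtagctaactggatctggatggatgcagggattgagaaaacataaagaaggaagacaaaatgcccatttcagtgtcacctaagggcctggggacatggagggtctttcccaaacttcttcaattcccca

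Mrc1, chr2:14229164-14229413, plus strand: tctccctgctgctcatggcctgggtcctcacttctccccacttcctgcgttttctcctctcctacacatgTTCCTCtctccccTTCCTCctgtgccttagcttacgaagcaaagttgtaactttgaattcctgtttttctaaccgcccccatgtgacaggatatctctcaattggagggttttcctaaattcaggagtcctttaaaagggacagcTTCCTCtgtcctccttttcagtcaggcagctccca

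The upstream sequence of Marco held the letters GAGGAA at 1 place, 146 to 141 bases before the start, and had a GC content of 47.6%. That of Mrc1 held them at 3 places on the opposite strand, at 180 to 175, 167 to 162 and 35 to 30 bases before the start, with a GC content of 49.6%. Over 32851 upstream sequences of the same length, 23.25% held these letters on either strand at least once. Both sequences were also searched, on both strands, for TGANTCA (AP-1), the NF-kB consensus, TTCNNNGAA (the GAS element), TGACNNNGC (the antioxidant response element), TTGCNNNAA (C/EBP) and TATAAA. These were found in 6.75%, 7.25%, 7.02%, 10.16%, 8.29% and 12.37% of all upstream sequences, and at 0 places in either gene. The letters are a description of these windows and say nothing of binding.

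Marco was near the floor in unstimulated cells and high after every ligand but Pic. The 8 Control arrays gave intensities of 30.5 at 0 h, 22.6 at 1 h, 31.3 at 2 h, 20 at 4 h, 38.3 at 6 h, 20.5 at 8 h and 20 at both 12 h and 24 h, a mean of 25.4 ± 7.04 (SD, n = 8) with 3 arrays at the floor. With Pam the 2 arrays gave 40.9 and 25.0 at 0.5 h, 38.5 and 41.6 at 1 h, 41.3 and 76.0 at 2 h, and then 777.2 and 935.8 at 4 h. They reached 1374.1 and 1214.3 at 6 h, 1764.5 and 1788.8 at 8 h, 2223.6 and 2155.3 at 12 h, 5479.9 and 4656.4 at 16 h, and 3114.5 and 3460.3 at 24 h. Both Pam arrays thus lay above every Control array at each of 8 of the 9 times, from 1 h on, and the step from 2 h to 4 h took the mean from 58.7 to 856.5.

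With Grd the signal ran a like course at lower values. Its arrays gave 44.7 and 42.9 at 2 h, 596.2 and 490.4 at 4 h, 1026.2 and 1123.3 at 8 h, 1710.7 and 1501.5 at 12 h, 4208.2 and 4053.1 at 16 h and 2286.2 and 2177.0 at 24 h. With Cpg they gave 58.7 and 44.6 at 2 h, 531.9 and 560.4 at 4 h, 980.6 and 973.2 at 8 h, 1402.0 and 1473.0 at 12 h, and single values of 2809.2 at 16 h and 1903.0 at 24 h. Lps gave the lowest of these 4 courses, with 34.3 and 35.3 at 2 h, 207.5 and 235.3 at 4 h, 509.7 and 602.2 at 8 h, 965.4 and 935.6 at 12 h, 1839.4 and 1562.9 at 16 h and 706.7 and 905.8 at 24 h. In all 4 of these ligands every array from 4 h on lay above the Control range.

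Pic stood apart from the other ligands. Its Marco arrays gave 38.5 and 45.3 at 0.5 h, 27.1 and 29.0 at 2 h, 32.7 and 35.4 at 4 h, 26.9 and 25.7 at 8 h, 24.2 and 23.7 at 12 h, 20.6 and 22.0 at 16 h and the floor of 20 in both arrays at 24 h. The highest Pic mean, 41.9 at 0.5 h, was also its only time with both arrays above the Control range, and the 6 late Pic arrays all lay within that range.

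**Figure D1:**
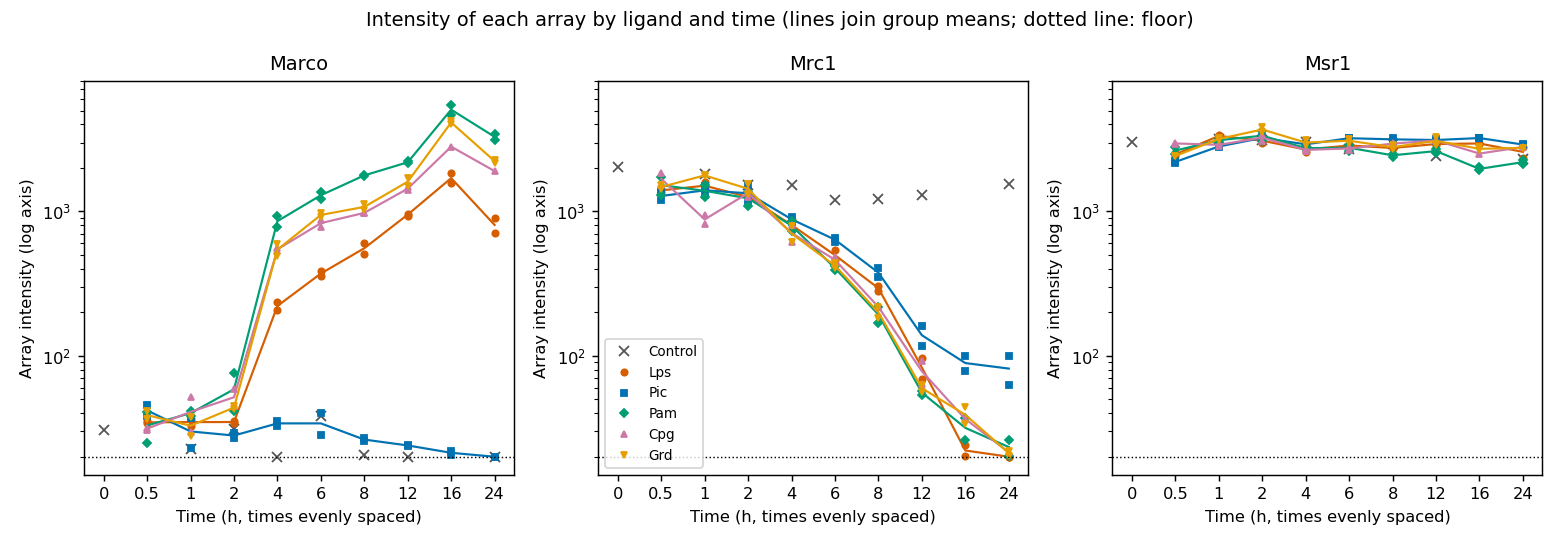
Intensity of Marco, Mrc1 and Msr1 (probe set 1422062_at) on each array against time, on log axes with the times evenly spaced; symbols are single arrays, lines join the means of a ligand, crosses are the Control arrays and the dotted line is the floor of 20. Marco climbs from 4 h in every ligand but Pic and is highest at 16 h, Mrc1 goes down from 4 h in all 5 ligands, and Msr1 stays within a narrow band.

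In the early window, the mean of the 0.5, 1 and 2 h groups on the log2(intensity + 1) scale, Marco differed little from Control. The differences were 0.48 with Lps, 0.38 with Pic, 0.73 with Pam, 0.67 with Cpg and 0.61 with Grd, each ± 0.12 (SE, n = 6 against 8), with adjusted p-values from limma of 0.0011, 0.01, 2.1e-06, 1.3e-05 and 0.00012. A gene was called changed at an adjusted p under 0.05 and a log2 difference of at least 1, and Marco was called in 0 of the 5 ligands. Of all genes tested, 2.12% were called early with Lps, 0.863% with Pic, 2.39% with Pam, 2.14% with Cpg and 1.12% with Grd. Control had no array at 0.5 h. Without the 0.5 h arrays of the ligands, the early difference of Marco from all 8 Control arrays was 0.48 with Lps, 0.21 with Pic, 0.92 with Pam, 0.84 with Cpg and 0.59 with Grd. Set against the Control arrays of 1 h and 2 h alone, the same ligand arrays stood at 0.37 with Lps (adjusted p = 0.11), 0.0995 with Pic (0.91), 0.81 with Pam (0.00028), 0.73 with Cpg (8e-04) and 0.49 with Grd (0.071) in limma.

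Between 4 h and 8 h, the middle window, Marco rose with 4 of the 5 ligands. The difference from Control was 3.80 ± 0.12 with Lps (14.0-fold, adjusted p = 6.9e-33 in limma), 5.61 ± 0.12 with Pam (48.8-fold, 5.5e-40), 4.89 ± 0.12 with Cpg (29.7-fold, 2.1e-37) and 5.00 ± 0.12 with Grd (31.9-fold, 9.8e-38). With Pic it was 0.32 ± 0.12 (adjusted p = 0.019), below the size required. In this window 15.3% of all genes tested were called with Lps, 7.72% with Pic, 7.48% with Pam, 10.9% with Cpg and 8.45% with Grd, in either direction.

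Late, from 12 h to 24 h, the Marco signal stood 5.41 ± 0.12 log2 units above Control with Lps, 7.01 ± 0.12 with Pam, 6.27 ± 0.15 with Cpg (n = 4) and 6.58 ± 0.12 with Grd, which are ratios of 42.5, 129, 76.9 and 95.7. With Pic it stood at -0.18 ± 0.12, and at 0.12 ± 0.18 when only the Control arrays of 12 h and 24 h were used. Because the Control arrays lie at or near the floor, these ratios depend on the floor and on the constant added before taking logs. Late calls against Control made up 9.12% of genes with Lps, 8.54% with Pic, 6.39% with Pam, 7.09% with Cpg and 6.72% with Grd, and no comparison with the members' values is drawn from these shares. From the middle to the late window, a contrast without Control arrays, the Marco signal stood higher by 1.61 ± 0.13 with Lps, 1.40 ± 0.13 with Pam, 1.37 ± 0.15 with Cpg and 1.58 ± 0.13 with Grd, and at -0.50 ± 0.13 with Pic. These values use the late arrays for which the genes were described and are likewise given with no test.

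The late course of Marco was not a plateau. Its mean at 16 h was 1.79 times that at 12 h with Lps, 2.32 times with Pam, 1.95 times with Cpg and 2.57 times with Grd, and it was 2.11, 1.54, 1.48 and 1.85 times the mean at 24 h in the same order. In each of these ligands both arrays at 16 h (1 array with Cpg) lay above all arrays at 12 h and at 24 h. The 16 h arrays of Lps, Pam and Grd share a plate column, whereas that of Cpg lies elsewhere on the plate, and the part of plate position was not tested.

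Of the macrophage markers, Adgre1 (F4/80) had a Control mean of 1027 and late means of 3498 with Lps, 636 with Pic, 4948 with Pam, 4606 with Cpg and 5628 with Grd, so that it was likewise low with Pic alone. Mertk, by contrast, had a Control mean of 338 and late means of 145, 534, 72.2, 127 and 104 in the same order of ligands, and C1qa, C1qb and C1qc had lower late means than Control with all 5. Csf1r stood between 1831 and 2493 late, beside 2325 in Control. Fcgr1 had a Control mean of 1835 and late means of 2518, 3568, 577, 2147 and 1764 with Lps, Pic, Pam, Cpg and Grd. For Siglec1 the Control mean was 23.2 and the late means were 37.5, 64.8, 20, 26.7 and 27.5, so both were highest with Pic and lowest with Pam among the ligands. The fibroblast marker Dcn had a Control mean of 25.0 and late means of 89.2, 29.9, 81.0, 89.4 and 120 in that order, and the other annotated fibroblast marker lay at the floor in Control. What part these cell types had in the Marco values was not tested.

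In the late window the ligands ranked Pam, Grd, Cpg, Lps and Pic by Marco signal. Pam exceeded Grd by 0.43 ± 0.13 and Cpg by 0.75 ± 0.15, both below the size required, and Cpg minus Grd was -0.31 ± 0.15. These pairs use the late arrays for which the genes were described, so they are given with no test. Lps gave less Marco signal than these, with Lps minus Pam at -1.60 ± 0.13, Lps minus Grd at -1.17 ± 0.13 and Lps minus Cpg at -0.86 ± 0.15. Pic was last, with Lps minus Pic at 5.59 ± 0.13, Pic minus Pam at -7.19 ± 0.13, Pic minus Cpg at -6.44 ± 0.15 and Pic minus Grd at -6.76 ± 0.13. With Pic the late arrays lay between the floor of 20 and 24.2, within the Control range, so these 4 differences are bounds set by the floor and are at least of the sizes given. The difference in Marco was past the size required in 6 of the 10 pairs. The shares of all genes that follow also ask for an adjusted p under 0.05. The share of all genes called was 3.44% for Lps against Pic, 2.97% for Lps against Pam, 0.579% for Lps against Cpg, 1.2% for Lps against Grd, 8.47% for Pic against Pam, 5.08% for Pic against Cpg, 6.35% for Pic against Grd, 1.17% for Pam against Cpg, 0.645% for Pam against Grd and 0.237% for Cpg against Grd.

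**Figure D2:**
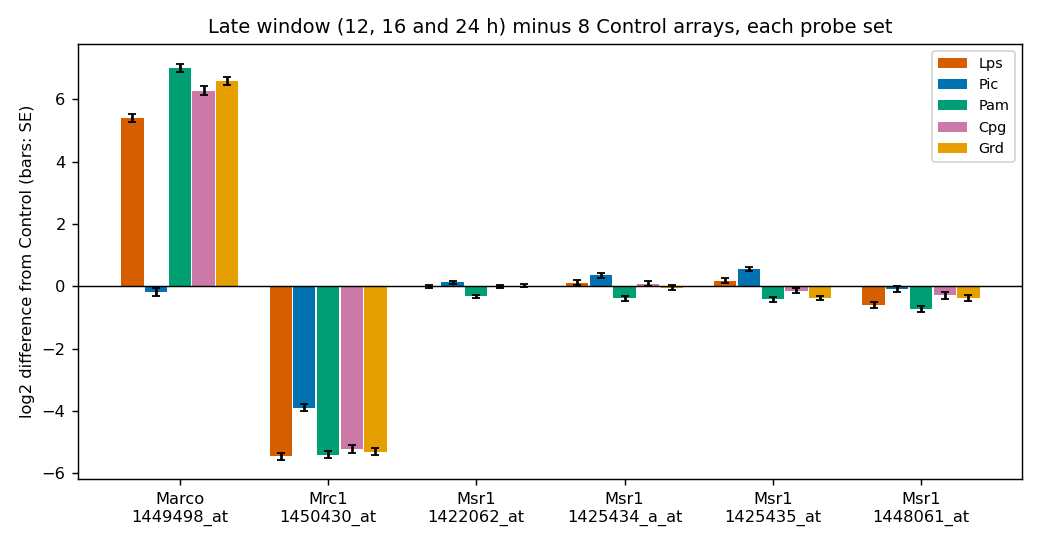
Difference of the late window (12, 16 and 24 h) from the 8 Control arrays on the log2(intensity + 1) scale for each probe set and ligand, with bars for the SE from the model. Marco stands between 5.41 and 7.01 in every ligand but Pic, Mrc1 between -5.45 and -3.91 in all 5, and the 4 probe sets of Msr1 between -0.72 and 0.56.

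Among Marco's relatives, the list of other scavenger receptors held 18 genes, of which 11 were annotated and 9 measured above the floor. Of all genes tested, 9.12% were called late with Lps, 8.54% with Pic, 6.39% with Pam, 7.09% with Cpg and 6.72% with Grd. Late against Control, 1 of the 9 listed genes was called higher and 2 lower with Lps, 0 higher and 2 lower with Pic, and 1 higher and 0 lower with each of Pam, Cpg and Grd. The median difference over the 9 genes ran from -0.07 to 0.03, beside -0.03 to -0.01 over all genes tested. This median depends on the Control reference. Against the Control arrays of 12 h and 24 h alone, with no test, it was -0.30 with Lps and 0.0006 with Pic. With Pam, Cpg and Grd it was then -0.32, -0.27 and -0.22. Over all genes tested the median with this reference lay between -0.03 and 0. Olr1, which encodes the receptor for oxidised low-density lipoprotein LOX-1, rose by 1.36 ± 0.20 with Lps, 1.16 ± 0.20 with Pam, 1.34 ± 0.24 with Cpg and 1.28 ± 0.20 with Grd (adjusted p from 5.9e-08 to 3.4e-06 in limma), and its value with Pic was 0.69 ± 0.20. Its Control arrays spread widely, from 64.8 at 24 h to 436.6 at 2 h, and against the Control arrays of 12 h and 24 h alone the differences were 1.80 with Pic and between 2.32 and 2.47 with the others.

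Scarb1, the receptor for high-density lipoprotein, fell with Lps, at -1.11 ± 0.08 (adjusted p = 1.6e-17), and with Pic, at -1.45 ± 0.08 (3.2e-22), with values of -0.29, -0.86 and -0.47 with Pam, Cpg and Grd that were not called. Lrp1, an endocytic receptor of the low-density lipoprotein receptor family, fell by 1.19 ± 0.08 with Lps (adjusted p = 6.9e-19) and stood at -0.75 with Pic and between -0.63 and -0.57 with the others. Cd36, a class B scavenger receptor for fatty acids and oxidised lipoprotein that was picked out after its values were seen, was the second gene called lower with Pic, at -1.04 ± 0.05 (adjusted p = 3.9e-25). Against the Control arrays of 12 h and 24 h alone, a reference that also leaves out the ligand arrays of 16 h, Cd36 with Pic stood at -0.87, under the size required, and Scarb1 with Cpg at -1.10, past it. Over the 9 genes and 5 ligands the late differences lay between -1.45 and 1.36, beside 5.41 to 7.01 for Marco with the ligands other than Pic.

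Mrc1 was high in unstimulated cells and went down with all 5 ligands. Its Control arrays gave 2040.2 at 0 h, 1803.1 at 1 h, 1532.8 at 2 h, 1527.6 at 4 h, 1196.4 at 6 h, 1220.7 at 8 h, 1292.2 at 12 h and 1537.7 at 24 h, a mean of 1519 ± 292 (SD, n = 8). With Lps the 2 arrays gave 1436.4 and 1360.4 at 0.5 h, 1264.9 and 1255.0 at 2 h, 873.3 and 738.0 at 4 h, 538.4 and 457.5 at 6 h, 306.4 and 281.0 at 8 h, 68.8 and 97.2 at 12 h, 24.1 and 20.1 at 16 h, and the floor of 20 in both at 24 h. The 24 h value with Lps is therefore only a bound, and Mrc1 was at least 74.8-fold lower there than the geometric mean of the Control arrays.

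The other ligands gave courses of the same shape. With Pam the arrays gave 1099.1 and 1364.7 at 2 h, 735.2 and 858.9 at 4 h, 218.6 and 167.6 at 8 h, 57.4 and 53.8 at 12 h, 37.1 and 26.3 at 16 h and 26.3 and 20.4 at 24 h. With Grd they gave 1542.7 and 1325.2 at 2 h, 794.6 and 610.1 at 4 h, 183.0 and 216.8 at 8 h, 62.7 and 56.6 at 12 h, 33.7 and 44.4 at 16 h and 22.0 and 20.4 at 24 h. With Cpg they gave 1268.3 and 1411.9 at 2 h, 614.1 and 803.7 at 4 h, 218.2 and 217.5 at 8 h, 64.3 and 92.1 at 12 h, and single values of 36.5 at 16 h and 21.5 at 24 h. Pic kept the highest late signal, with 1172.8 and 1498.4 at 2 h, 850.5 and 914.8 at 4 h, 349.3 and 404.0 at 8 h, 116.3 and 161.5 at 12 h, 99.4 and 78.8 at 16 h and 63.2 and 100 at 24 h.

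From 4 h on, every array of every ligand lay below the lowest Control array. As a percentage of the Control mean, the Mrc1 means lay between 46.2% and 58.1% at 4 h, between 12.7% with Pam and 24.8% with Pic at 8 h, between 3.66% with Pam and 9.15% with Pic at 12 h, and at 24 h between 1.32% and 1.54% with the 4 other ligands against 5.37% with Pic. Before 4 h only Cpg at 1 h had both arrays, 945.2 and 815.5, below the Control range, and its arrays at 0.5 h and 2 h lay within it.

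In the early window Mrc1 was called in 0 of the 5 ligands, with differences of -0.11 with Lps, -0.17 with Pic, -0.13 with Pam, -0.25 with Cpg and 0.06 with Grd, each ± 0.11 (adjusted p from 0.058 to 0.78 in limma). Without the 0.5 h arrays the values were -0.12, -0.14, -0.20, -0.46 and 0.09 in the same order. Those arrays against the Control arrays of 1 h and 2 h alone gave -0.27 with Lps (adjusted p = 0.25 in limma), -0.29 with Pic (0.42), -0.35 with Pam (0.1), -0.62 with Cpg (0.0034) and -0.06 with Grd (0.98), so that the value with Grd changed sign and the size required was not reached with any ligand. In the middle window it fell with all 5, by differences of -1.61 with Lps (adjusted p = 9.1e-19), -1.33 with Pic (2.7e-15), -1.92 with Pam (2.1e-21), -1.85 with Cpg (5e-21) and -1.94 with Grd (1e-21), each ± 0.11. The call with Pic rests on the 8 h arrays, since the value without that time was -0.996 and just under the required size. Late, Mrc1 stood at -5.45 ± 0.11 with Lps, -3.91 ± 0.11 with Pic, -5.40 ± 0.11 with Pam, -5.21 ± 0.13 with Cpg and -5.31 ± 0.11 with Grd, ratios of Control over ligand of 43.8, 14.99, 42.4, 37.1 and 39.8.

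The drop between the middle and the late window was larger than that between Control and the middle window in each ligand. The late minus middle differences, which use the late arrays and are given with no test, were -3.84 ± 0.12 with Lps, -2.58 ± 0.12 with Pic, -3.49 ± 0.12 with Pam, -3.36 ± 0.14 with Cpg and -3.37 ± 0.12 with Grd. The value with Lps is a bound, since both 24 h arrays lay at the floor. In the late window Mrc1 was higher with Pic than with each other ligand, again with no test. Lps minus Pic was -1.55 ± 0.12, Pic minus Pam 1.499 ± 0.12, Pic minus Cpg 1.31 ± 0.14 and Pic minus Grd 1.41 ± 0.12. Among Lps, Pam, Cpg and Grd the 6 differences lay between -0.24 and 0.10, each ± 0.12 or 0.14. Values at the floor are bounds and have no order, which limits what can be told of these 4 ligands at 24 h. The difference in Mrc1 was past the size required in 4 of the 10 pairs, each involving Pic. Of all genes tested, 3.44% were called for Lps against Pic, 8.47% for Pic against Pam, 5.08% for Pic against Cpg and 6.35% for Pic against Grd. For the pairs without Pic these shares lay between 0.237% and 2.97%.

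**Figure D3:**
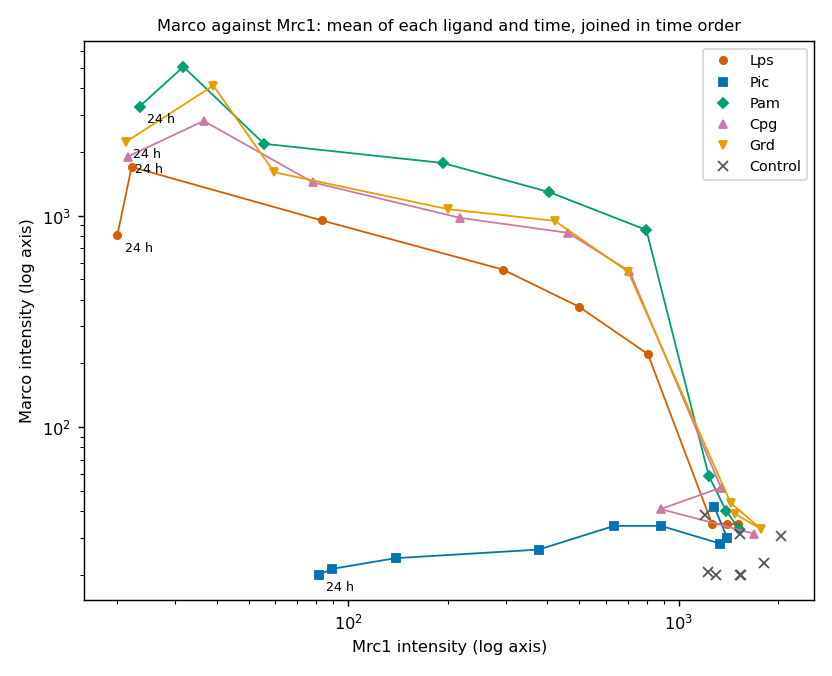
Mean Marco intensity against mean Mrc1 intensity for each ligand and time, both on log axes, joined in time order, with crosses for the single Control arrays. Courses of Lps, Pam, Cpg and Grd run up and to the left from 4 h to 16 h and then down to 24 h. That of Pic runs left along the bottom, ending at a mean Marco of 20 and a mean Mrc1 of 81.6 at 24 h.

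From 4 h on the 2 genes thus lay on opposite sides of Control with 4 ligands, and with Pic only Mrc1 was called. From 16 h to 24 h the means of both genes went down with these 4 ligands, those of Mrc1 near the floor. Over the 53 points formed by the 45 ligand and time means and the 8 Control arrays, Pearson's r of the log2 values was -0.76 between Marco and Mrc1. These points share the time course and the plate, so the coefficient is given as a description. At 4 h, the first time at which these 4 ligands had all arrays of both genes outside the Control range, Marco was 8.72 times the Control mean with Lps, 33.7 times with Pam, 21.5 times with Cpg and 21.4 times with Grd, while Mrc1 was at 53.04%, 52.5%, 46.7% and 46.2% of it. The change in Marco from the middle to the late window with Pic differed from the mean change with the other 4 ligands by -1.99 ± 0.15. For Mrc1 the same contrast was 0.94 ± 0.14, a smaller drop with Pic whose size was under the threshold of 1. Both contrasts hold arrays at the floor, those of Pic for Marco and of Lps for Mrc1 at 24 h. They use the late arrays for which the genes were described and are given with no test.

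Of the other genes of the mannose receptor family, Mrc2, Pla2r1 and Ly75, 2 were annotated and 1 was measured above the floor. Ly75 (DEC-205), an endocytic receptor of dendritic cells, was called in 0 of the 5 ligands late, with differences of 0.97 ± 0.08 with Lps, 0.86 ± 0.08 with Pic, 0.28 ± 0.08 with Pam, 0.68 ± 0.09 with Cpg and 0.37 ± 0.08 with Grd. All 5 values were above 0, unlike those of Mrc1. The 24 h Control array of Ly75 gave 104.4, beside 153.2 to 184.7 on the others. Against the Control arrays of 12 h and 24 h alone the values were 1.32 with Lps, 1.05 with Pic, 0.57 with Pam, 1.05 with Cpg and 0.72 with Grd, so that with this reference 3 of the 5 passed the size required.

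Mrc1 is grouped with genes of alternative activation, the state that interleukin-4 induces through STAT6. Of the 14 other genes of this list, all measured, 0 were called higher with any ligand, and 5 were called lower with each of Lps, Pam, Cpg and Grd and 4 with Pic. Of all genes tested, 4.42% were called lower with Lps, 4% with Pic, 2.97% with Pam, 3.23% with Cpg and 2.88% with Grd. The list's median difference was -0.41 with Lps, -0.50 with Pic, -0.54 with Pam, -0.35 with Cpg and -0.59 with Grd, beside -0.02, -0.03, -0.01, -0.01 and -0.01 over all genes tested.

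These counts and medians depend on the Control reference. Against the Control arrays of 12 h and 24 h alone, with no test, 4 of the 14 genes lay lower by the size required with Lps, 2 with Pic and 3 each with Pam, Cpg and Grd, and 2 lay higher with Lps, Pam and Cpg and 1 with Pic and Grd. The list's median was then -0.13 with Lps, -0.18 with Pic, -0.088 with Pam, -0.049 with Cpg and -0.14 with Grd. Past the same size and against the same arrays lay 5.8%, 4.7%, 3.65%, 4.89% and 4.31% of all genes on the lower side and 5.77%, 5.17%, 3.78%, 5.08% and 4.63% on the higher side. The genes on the higher side were those of the chemokines Ccl17, at 2.10 with Lps, 1.06 with Pic, 1.85 with Pam, 1.88 with Cpg and 1.35 with Grd, and Ccl22, at 1.21, 0.81, 1.03, 1.25 and 0.95. The Control arrays of Ccl17 gave 10043.4 at 0 h, 1604.3 at 6 h, 7473.3 at 8 h, 3743.6 at 12 h and 776.5 at 24 h, and against all 8 of them its late value was 0.44 with Lps, -0.76 with Pic, 0.09 with Pam, 0.36 with Cpg and -0.51 with Grd. Both chemokine genes were picked out after their values were seen.

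Mgl2, a galactose-type lectin gene, fell with all 5 ligands, at -2.61 ± 0.22 with Lps, -2.89 ± 0.22 with Pic, -3.62 ± 0.22 with Pam, -3.17 ± 0.26 with Cpg and -3.04 ± 0.22 with Grd (adjusted p from 6.2e-21 to 1.3e-15 in limma). Its Control arrays ran from 231.2 at 24 h to 1045.1 at 1 h, and against those of 12 h and 24 h alone the differences were between -2.46 and -1.51.

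Clec10a, its close relative, averaged 139 ± 51.2 in Control and lay at the floor on every late array of all 5 ligands, at least 6.55-fold lower. Pparg, a nuclear receptor of lipid metabolism, fell with all 5, at -1.58 to -1.45, from a Control mean of 65.1, and all its late means lay within 3 units of the floor. Its Control arrays gave 40.7 at 12 h and 47.2 at 24 h, beside 61.6 to 88.9 at the other times. Against those of 12 h and 24 h alone Pparg stood at -1.04 with Lps and between -0.99 and -0.89 with the others, under the size required. Arg1, the arginase of alternatively activated macrophages, was called lower with all 5 ligands, at -1.43 to -1.13, but its Control arrays themselves went from 103.2 at 0 h to 25.6 at 12 h and 31.0 at 24 h. Against the Control arrays of 12 h and 24 h, Arg1 stood at only -0.47 to -0.03. Klf4, a Krueppel-like transcription factor, fell at -3.12 with Lps, -3.001 with Pam, -3.42 with Cpg and -3.12 with Grd (adjusted p from 1.4e-29 to 7.2e-28), and its value with Pic was -0.47 ± 0.12. The chemokine genes Ccl17 and Ccl22, the resistin-like gene Retnla, and Chil3, Tgm2, Il4ra, Irf4, Ccl24 and Stat6 made up the other 9 genes of the list, which were called with 0 ligands against all 8 Control arrays.

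**Figure D4:**
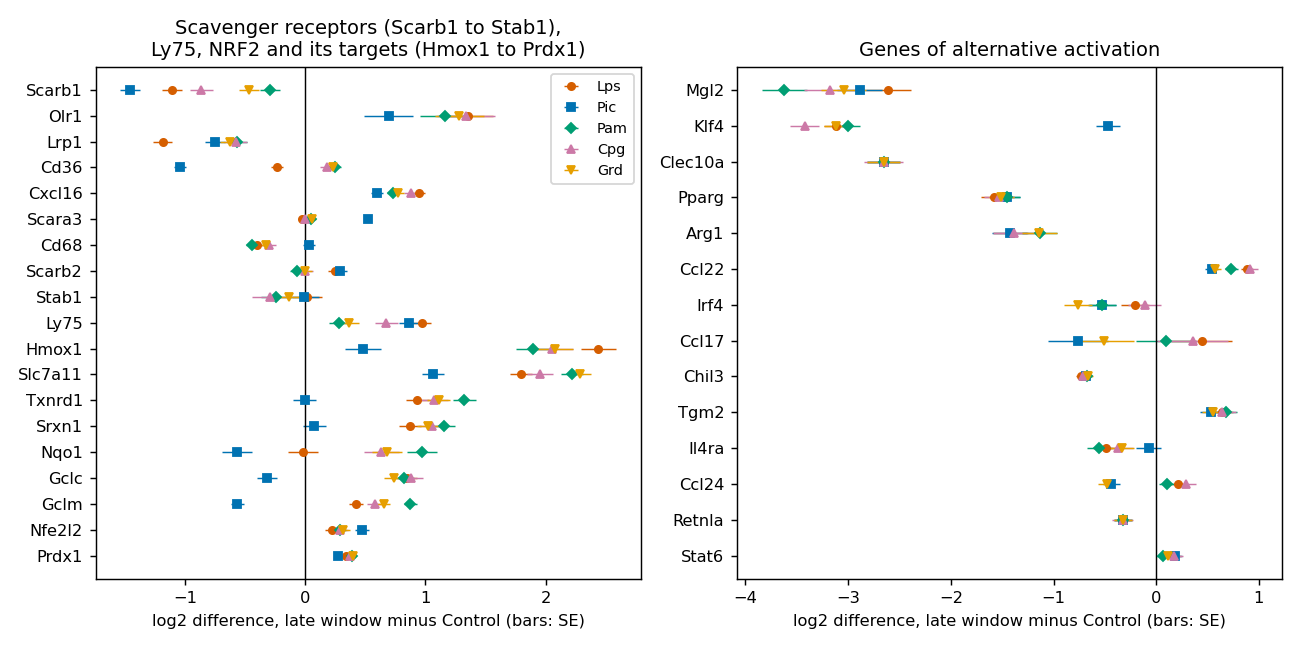
Late difference from Control on the log2(intensity + 1) scale with SE for each measured gene of the lists: other scavenger receptors (Scarb1 to Stab1), Ly75, and NRF2 with its targets (Hmox1 to Prdx1) on the left, and genes of alternative activation on the right. Against all 8 Control arrays Mgl2, Clec10a, Pparg and Arg1 lie below -1 with all 5 ligands, and Slc7a11 lies above 1 with all 5.

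The transcription factor NRF2, a sensor of oxidative stress, is known to act on Marco, and 9 genes, Nfe2l2 and targets of its product, were followed for this reason. Late, 2 of the 9 were called higher with Lps, 1 with Pic and 4 each with Pam, Cpg and Grd, and 0 were called lower. The share of all genes called higher was 4.7% with Lps, 4.53% with Pic, 3.42% with Pam, 3.86% with Cpg and 3.84% with Grd. The median over the list was 0.85 with Lps, 0.08 with Pic, 0.97 with Pam, 0.88 with Cpg and 0.74 with Grd, beside -0.03 to -0.01 over all genes. Against the Control arrays of 12 h and 24 h alone, with no test, 5 of the 9 lay higher by the size required in each of Lps, Pam and Cpg, beside 4 for Grd and 1 for Pic. The median with this reference was 1.21 for both Lps and Pam, 1.05 for Cpg, 0.88 for Grd and 0.25 for Pic. With Lps the genes added by this reference were Txnrd1 at 1.31, Srxn1 at 1.36 and Gclc, a subunit of the enzyme that starts glutathione synthesis, at 1.21. Hmox1, which encodes haem oxygenase, averaged 561 ± 86.2 in Control and rose by 2.44 ± 0.15 with Lps, 1.90 ± 0.15 with Pam, 2.05 ± 0.17 with Cpg and 2.08 ± 0.15 with Grd (adjusted p from 4.7e-21 to 3.7e-15 in limma). With Pic Hmox1 stood at 0.48 ± 0.15 and was not called. Slc7a11, the cystine transporter, rose with all 5 ligands, by 1.80 ± 0.09 with Lps, 1.07 ± 0.09 with Pic, 2.22 ± 0.09 with Pam, 1.96 ± 0.11 with Cpg and 2.28 ± 0.09 with Grd. Txnrd1, thioredoxin reductase, rose by 1.33 with Pam, 1.08 with Cpg and 1.11 with Grd and stood at 0.93 with Lps and -0.0044 with Pic. The fourth gene called with Pam, Cpg and Grd was Srxn1, picked out after its values were seen, at 1.15, 1.06 and 1.02. Whether these genes and Marco share a control was not tested.

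Msr1 changed less than Marco and Mrc1 on its brightest probe set, where all arrays lay between 1922.1 and 3818.6. On probe set 1422062_at the Control arrays gave 3033.1 at 0 h, 3167.5 at 1 h, 3115.7 at 2 h, 3015.3 at 4 h, 2696.6 at 6 h, 2908.2 at 8 h, 2429.3 at 12 h and 2303.9 at 24 h, a mean of 2834 ± 323 (SD, n = 8). Over its 18 arrays each, the lowest, median and highest values were 2354.9, 2861 and 3384.4 with Lps, 2157.1, 3074 and 3285.8 with Pic, 1922.1, 2670 and 3596.0 with Pam and 2404.2, 2884 and 3818.6 with Grd, and over 16 arrays with Cpg they were 2516.3, 2921 and 3391.0. The ligand arrays largely overlapped the Control range of 2303.9 to 3167.5.

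Within this band Msr1 had a short early course. With Lps the means were 2481 at 0.5 h, 3334 at 1 h and 3092 at 2 h, with Pic 2203, 2817 and 3229, with Pam 2639, 3112 and 3347, and with Grd 2422, 3177 and 3694, while with Cpg they were 2958, 2892 and 3244. The 0.5 h mean was thus the lowest of the 3 early times except with Cpg, and there was no Control array at 0.5 h to set it against. The 0.5 h arrays of Lps, Pic, Pam and Grd share plate column 1 and those of Cpg do not, and the part of plate position in this was not tested. At 2 h both Grd arrays, 3569.0 and 3818.6, lay above the Control range, as did both Pic arrays. Averaged over the early window, Msr1 differed from Control by -0.05 to 0.12, each ± 0.05, with adjusted p-values from 0.051 to 0.40 in limma. Without the 0.5 h arrays the values were 0.19 with Lps, 0.098 with Pic, 0.19 with Pam, 0.12 with Cpg and 0.28 with Grd. Their adjusted p-values ran from 4.3e-05 to 0.16 in limma. Those arrays against the Control arrays of 1 h and 2 h alone gave -0.06 to 0.12 (adjusted p from 0.19 to 0.79 in limma).

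In the middle window the differences were -0.03 with Lps, 0.13 with Pic (adjusted p = 0.011), -0.09 with Pam, -0.02 with Cpg and 0.07 with Grd, each ± 0.05. Late they stood at -0.0012 with Lps, 0.13 with Pic, -0.33 with Pam, -0.01 with Cpg and 0.01 with Grd. Msr1 was called in 0 of the tested contrasts, since none reached a log2 difference of 1. The Pam arrays of 16 h, 1922.1 and 2020.1, and of 24 h, 2267.4 and 2120.8, all lay below the lowest Control array, and those of 12 h, 2522.7 and 2713.9, lay within the range. From the middle to the late window Pam gave -0.24 ± 0.05, against -0.06 to 0.03 with the other ligands. In the late window Pam was the lowest ligand, again with no test. Lps minus Pam was 0.33, Pic minus Pam 0.46, Pam minus Cpg -0.32 and Pam minus Grd -0.34, each ± 0.05 or 0.06, differences of at most 1.37-fold. Pic was the highest, with Lps minus Pic at -0.13, Pic minus Cpg at 0.14 and Pic minus Grd at 0.12. The differences among Lps, Cpg and Grd lay between -0.03 and 0.01, each ± 0.05 or 0.06.

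The unstimulated cells were not flat for Msr1. Over the 8 Control arrays its slope was -0.10 ± 0.02 per unit of log2(hours + 1) (adjusted p = 0.046 in limma), while 12.3% of all genes passed at an adjusted p under 0.05. Leaving out any of 7 of the 8 arrays, all but the 0 h array, took the adjusted p to between 0.059 and 0.17, so the slope is no firm result. Marco had a slope of -0.11 ± 0.08 (adjusted p = 0.38) and Mrc1 of -0.13 ± 0.05 (0.11). Against the Control arrays of 12 h and 24 h alone, Msr1 stood late at 0.22 with Lps, 0.35 with Pic, 0.02 with Pam, 0.32 with Cpg and 0.30 with Grd. That comparison leaves out 16 h, and against a line fitted to the Control arrays over time the late value with Pam was -0.16.

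The 3 other probe sets of Msr1 did not all follow the first. Over the 53 points r with 1422062_at was 0.88 for 1425434_a_at, 0.69 for 1448061_at and 0.38 for 1425435_at, and 0.08 between 1425435_at and 1448061_at. Which transcripts of Msr1 each probe set reads is not stated in the files. Late, 1425434_a_at stood at 0.11 with Lps, 0.35 with Pic, -0.39 with Pam, 0.09 with Cpg and -0.05 with Grd, the same order of Pic and Pam as on 1422062_at. On this probe set the 0.5 h arrays of Lps, Pic and Grd averaged 676, 555 and 585, with both arrays below the Control range of 739.1 to 1101.8, while those of Pam averaged 694 and those of Cpg 1066.

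The dimmest probe set, 1425435_at, spread the ligands furthest. Its late arrays ran from 206.1 to 250.4 with Pic and from 93.0 to 143.9 with Pam, beside 129.2 to 192.0 in Control, so that Pic lay wholly above the Control range and Pic and Pam did not overlap. Pic minus Pam was 0.98 ± 0.08 on it, just under the size required, and Pic minus Grd was 0.94 ± 0.08, both with no test. From the middle to the late window it gave 0.51 ± 0.08 with Pic and 0.27 ± 0.08 with Lps.

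Probe set 1448061_at had lower means from 12 h on than at 2 h, with every ligand and in Control. Its Control arrays went from 1448.4 at 0 h and 1474.0 at 2 h to 768.2 at 12 h and 870.5 at 24 h, with a slope of -0.22 ± 0.04 (adjusted p = 0.04 in limma). The late difference from all Control arrays was -0.59 with Lps, -0.08 with Pic, -0.72 with Pam, -0.29 with Cpg and -0.39 with Grd, each ± 0.09 (0.11 with Cpg). This reference includes the brighter early Control arrays. At 12 h the means were 853 with Lps, 1050 with Pic, 791 with Pam, 979 with Cpg and 1014 with Grd. All of these lay above the Control array of 12 h. At 24 h they were 594, 968, 624, 861 (1 array) and 680 in the same order. Only Pic then lay above the Control array of 24 h. The late range of this probe set with Pic, 931.5 to 1176.1, lay above that with Lps, 591.1 to 867.4, and that with Pam, 575.4 to 818.2. All 4 probe sets thus gave a higher late value with Pic than with Pam, by 0.46, 0.74, 0.98 and 0.64 in the order 1422062_at, 1425434_a_at, 1425435_at and 1448061_at.

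**Figure D5:**
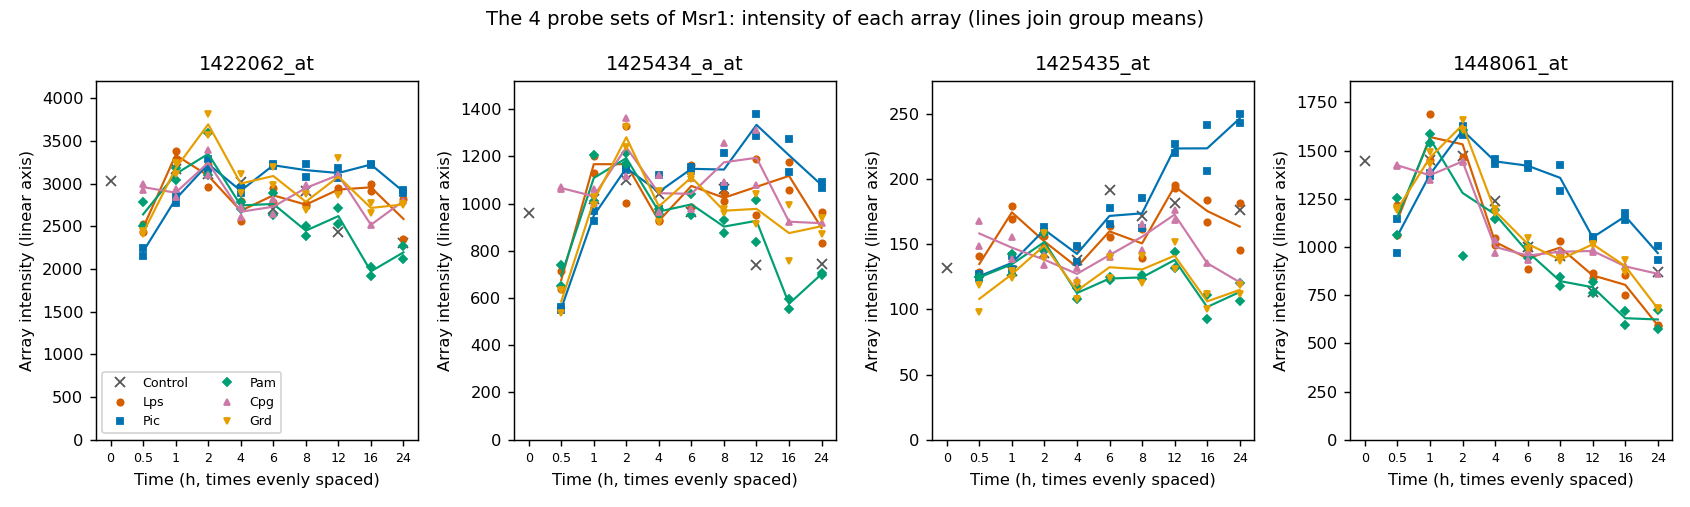
Intensity of the 4 probe sets of Msr1 on each array against time, on linear axes that start at 0 and differ between panels, with the times evenly spaced; lines join ligand means and crosses are Control arrays. Late, Pic lies highest and Pam lowest or among the lowest on each probe set, and the Control arrays of 1448061_at go from 1448.4 at 0 h to 870.5 at 24 h.

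The genes whose course over the 53 points was most like that of Marco were Lcn2 (the siderophore-binding lipocalin, r = 0.98), Wnt6 (a secreted Wnt ligand, 0.98), Vnn3 (a vanin, 0.97), Lox (a collagen crosslinking enzyme, 0.96) and Cxcl5 (a neutrophil chemokine, 0.96). The mean of Lcn2 was 339 in Control, 6999 with Pam at 16 h and 346 with Pic at 16 h, and that of Lox was 37.4, 3740 and 77.6. Cxcl5 lay at the floor in Control and with Pic at 16 h and reached 1136 with Pam at 16 h. The course was most opposed by Cd300lf (an inhibitory receptor of myeloid cells, r = -0.93), Pycard (the inflammasome adaptor ASC, -0.93) and Sting1 (the adaptor of cytosolic DNA sensing, -0.93). Cd300lf had a mean of 1184 in Control, 151 with Pam at 16 h and 1210 with Pic at 16 h.

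For Mrc1 the most similar courses were those of Ramp1 (an accessory protein of the calcitonin receptor family, r = 0.97), S100a6 (a calcium-binding protein, 0.97), the chemokine receptor gene Ccr2 (0.97), H2-DMa (a subunit of the peptide exchanger of MHC class II, 0.96) and Plxdc2 (0.96). Ccr2 had a mean of 1834 in Control, 41.9 with Pam at 16 h, 122 with Pic at 16 h and the floor with Lps at 24 h. The most opposed were Hax1 (r = -0.96), Prdx1 (a peroxiredoxin, -0.96) and Mmp2 (a matrix metalloproteinase, -0.95), of which Mmp2 had a mean of 107 in Control, 1047 with Pam at 16 h and 480 with Pic at 16 h.

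No gene followed Msr1 as closely. The highest coefficients with 1422062_at were those of Traf6 (a signalling adaptor of Toll-like receptors, r = 0.74), Rabgap1l (0.70), Tmem168 (0.68), Glipr2 (0.66) and Lilrb4a (0.65), and the lowest were those of Sod1 (superoxide dismutase, -0.72), Atp5e (-0.66) and Map1lc3a (-0.65). Msr1 itself had r = -0.37 with Marco and 0.28 with Mrc1. All these coefficients describe how courses resemble each other over points that share arrays and a plate, and nothing is drawn from them about function or control.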

How the data were processed

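Biotin-labelled total RNA was read on 96 Affymetrix mouse arrays, per the labels' protocols. The authors deposited 1 array intensity per probe set, made with RMA (version not given in the sources used here), per the submitters' processing notes. The values are on a linear scale from a floor of 20 up to 16401.5, and no further array normalization was applied. GEO's platform annotation gave 15044 of 18858 probe sets 1 gene symbol, 257 several and 3557 none, and 15024 matched RefSeq. Left out were 4409 probe sets that no array measured above the floor. The brightest probe set stood for a gene, which left 10543 genes and unnamed probe sets.

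limma 3.58.1 in R 4.3.3 (lmFit, eBayes) was run on log2(intensity + 1), with a mean for each of 45 ligand and time groups and 1 for the 8 Control arrays. Windows were 0.5 to 2 h, 4 to 8 h and 12 to 24 h. Benjamini-Hochberg adjustment ran over all genes tested in each contrast. The Control trend was fitted to the 8 Control arrays alone. The model was tested on simulated data. Late against middle values and late ligand pairs of the members were fitted as planned. These, and the contrast of Pic with the other ligands built from late against middle values, are given with no test, since they use the late arrays. Members and gene lists were chosen with earlier results of these data known.

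Named from each list were the 3 genes with the largest late difference and those called with all 5 ligands, and for likeness the 5 highest and 3 lowest coefficients. Alternatives were another constant (16), array centring, quantile normalization, filters on dim probe sets, single probe sets, array weights, a replicate block, other Control references, a plate block, windows without a time and leaving out arrays. The number of arrays limits the precision.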

Additional observations from a re-analysis of the deposited data

Results flagged for a closer look

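In the late window the course of Marco with Pic differed from that with the other 4 ligands. The change from the middle to the late window with Pic minus the mean change with Lps, Pam, Cpg and Grd was -1.99 ± 0.15 on the log2 scale. It uses the late arrays for which Marco was described and is given with no test. Both late arrays of Pic at 24 h lay at the floor of 20, and all 6 late Pic arrays lay below the mean of the 8 Control arrays, within their range. The Control arrays of 12 h and 24 h themselves lay at 20. Against these alone the late value with Pic was 0.12 ± 0.18.

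Among 96 sets of 4 to 8 arrays of 1 probe set, 4 held an array whose gap to the nearest other, as a share of the range of the set, exceeded Dixon's critical value. Chance alone flags about 1 set in 20. All 4 were probe sets of Msr1, to which 4 of the 6 probe sets of the members belong. Each set pooled the times of a window or the Control arrays. A steep course over time, as for Marco and Mrc1, widens the range and makes a flag harder to reach. On 1422062_at, array 2 of Lps at 24 h gave 2354.9, beside 2815.9 to 2997.4 on the other late Lps arrays. On the same probe set, array 1 of Grd at 12 h gave 3295.0, beside 2653.4 to 2867.2 on the other late Grd arrays. On 1425434_a_at, array 1 of Cpg at 2 h gave 1362.2, beside 1001.4 to 1115.7 on the other early Cpg arrays. On 1448061_at, array 1 of Pic at 8 h gave 1290.7, beside 1410.3 to 1457.6 on the other middle Pic arrays.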

How the results depend on the processing

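Over 93 results and 2301 alternative values, 2246 kept their call or, for late values against Control, moved by less than the spread between arrays, and 0 values of results past the size of 1 changed sign. Calls of late against middle values and of late pairs were counted here only to compare the settings. Values under that size did: 88 values of 25 results, each at most 0.33 in size with the reported settings, took the opposite sign. With log2(intensity + 16) the late difference of Marco was 4.76 with Lps, 6.35 with Pam, 5.60 with Cpg and 5.92 with Grd, and that of Mrc1 -4.88, -4.89, -4.73 and -4.82. Against Control arrays of the same times, Msr1 stood late at 0.22, 0.35, 0.018, 0.32 and 0.30 (Lps, Pic, Pam, Cpg, Grd), Mrc1 with Lps at -5.08 and Marco with Pic at 0.12, so that Marco with Pic and Msr1 with Lps, Pam and Cpg changed sign, as did early Mrc1 with Grd (-0.06) and early Msr1 with Cpg (-0.04). Against a fitted Control trend Msr1 stood at 0.17, 0.30, -0.16, 0.16 and 0.18 and Mrc1 at -5.23, -3.68, -5.18, -4.99 and -5.09. Without 8 h the middle value of Mrc1 with Pic was -0.996 (adjusted p = 1.7e-09 in limma) and no longer called. Without 12 h Mrc1 stood late at -6.09, -4.14, -5.74, -5.69 and -5.66, Marco at 7.31 with Pam and 6.89 with Grd, and Msr1 at -0.44 with Pam. Without 16 h Marco stood at 5.09 with Lps, 6.71 with Pam, 6.01 with Cpg and 6.20 with Grd, Mrc1 at -5.17 with Lps and Msr1 at -0.23 with Pam. Without 24 h Mrc1 stood at -5.10 with Lps, -5.13 with Pam, -4.79 with Cpg and -4.93 with Grd. The cause of these shifts was not tested. Leaving out 1 array at a time, late Cpg minus Control ran from 6.01 to 6.35 for Marco and from -5.30 to -4.79 for Mrc1, Marco Pam minus Cpg from 0.71 to 1.00 (just past the size required), Mrc1 Pic minus Cpg from 0.88 (under it) to 1.42 and the Msr1 Control slope from -0.13 to -0.078. The ends 1.00 and 0.88 leave out the lone Cpg array of 16 h or 24 h, which sets unlike times against each other. With that time left out of both ligands the values were 0.697 and 1.04, and neither crossed the size required. Over 903 pairs of groups the median correlation of the deviations between replicate numbers was 0.008, and 157 exceeded 0.1. Within a ligand 52 of 165 pairs exceeded 0.1 (median 0.051), and between ligands 105 of 738 (median 0). The replicate block fits 1 effect for all ligands, so it cannot tell whether the number paired arrays within a ligand. With a replicate block Marco stood late at 7.01 with Pam and 6.26 with Cpg, no call of a member changed, and counts of calls changed by a factor of 0.92 to 1.03. Centring the arrays moved the median of all genes by up to 0.19 (Lps, middle window) and by at most 0.08 late. Marco in Control and Mrc1 late lie near the floor, so their ratios depend on it.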
